A study of Homo sapiens with 2 samples.

Results

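The DNA replication machinery was taken as 48 named genes, among 23595 genes with a symbol on the array. They cover origin recognition, licensing, the replicative helicase, the polymerases, the sliding clamp, single-strand binding, Okazaki fragment joining, deoxynucleotide supply and the regulators of entry into S phase. All 48 were measured, by 90 of the 45033 transcript rows (a row is the authors' summary of 3 probes for 1 transcript). Names in the files, including older ones such as ORC1L, CDC45L and POLA, gave 45 of them. GINS1, GINS2 and GINS3 were found by their gene IDs only, under the names RP4-691N24.2, Pfs2 and FLJ13912.

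The cells were Panc1, an established line of human pancreatic ductal cancer, and gave total RNA after they had been pretreated for 24 h either with DMSO, which served as the control, or with clofibrate, a lipid-lowering compound and PPARalpha agonist. There were 2 arrays, 1 for each pretreatment, and the sources used here do not give the clofibrate dose. No difference below has a replicate check, no test was run, and precision is limited by having so few arrays. In RNA from bulk cultures, fewer cells in S phase and less RNA per cell cannot be told apart.

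Before a cell copies its DNA, the origin recognition complex (ORC) marks start sites, and CDC6 and CDT1 load the ring of MCM2 to MCM7 around the double strand. At entry into S phase, cyclin E and DBF4-dependent kinase help to turn this ring, with CDC45 and the GINS complex, into the active helicase, and polymerases follow on the opened strands. Many of these genes are transcribed just before S phase by E2F factors, so their messages are widely read as a signature of cycling cells, including pancreatic cancer cells.

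Replication genes read slightly lower on the clofibrate array. The median log2 difference, clofibrate minus DMSO, was -0.13 over the 48 genes and 0.0036 over all genes. Of the 48, 32 lay below 0 and 16 above, while 49.6% of all genes lay below 0 and 50.4% above. The 25th and 75th percentiles of the members were -0.22 and 0.08, against -0.20 and 0.19 over all genes and -0.16 and 0.17 over bright genes, those at or above the median level. The largest differences were ORC6, 1.73-fold lower, and GINS1, 1.29-fold higher. At 1.5-fold, 1 member was lower and 0 were higher, while 4.62% of all genes were lower and 4.53% higher by that fold. At 2-fold, 0 members were lower, beside 0.911% of all genes, and 0 were higher, beside 1.03%. RFC1, at 1.46-fold lower, was the member just short of 1.5-fold.

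**Figure D1:**
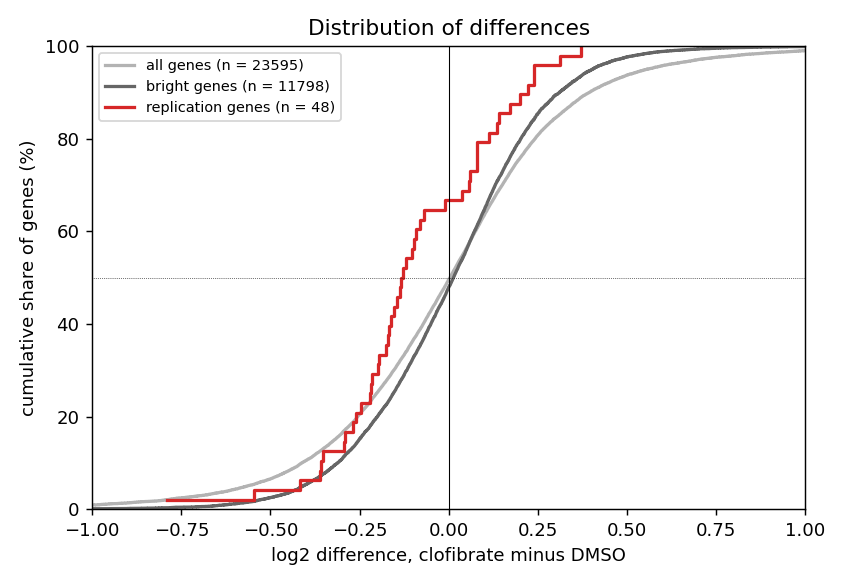
Cumulative share of genes (vertical axis, %) against the log2 difference, clofibrate minus DMSO (horizontal axis), for the 48 replication genes (red), the 11798 bright genes (dark grey) and all 23595 genes (light grey), 1 array per treatment. The red curve crosses 50% at -0.13 and lies left of both grey curves through most of its middle range, and 32 of its 48 genes are left of 0. Differences beyond 2-fold in either direction are off the axis.

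Nearly all members gave strong signals. Bright, as above, is used for a gene whose mean over both arrays reaches the median of all genes (8.51 on the log2 scale). Of the 48 members, 46 were bright, and all 90 rows read above the random probes of their array. Over the 46 bright members the median was also -0.13, with 31 below 0 and 15 above, while 47.9% of bright genes were below 0 and 52.1% above. Of the 46 bright members, 1 was at least 1.5-fold lower, 0 were 1.5-fold higher, and 0 were 2-fold different either way, so a single gene sets any difference from the background. Among bright genes 1.32% were at least 1.5-fold lower, 1.31% at least 1.5-fold higher, 0.11% at least 2-fold lower and 0.136% at least 2-fold higher. The dim members were DBF4 and GINS1. Each member was also placed among about 590 genes of like level, one of 40 level bins, to show how far genes of that brightness differ between these 2 arrays. By that measure 21 of the 48 members were below the 25th percentile of their bin and 7 above the 75th. ORC6 and RFC1 lay outside the middle 95% of their bins, and 5.09% of all genes did so. Both were bright and below the lower edge, where 2.54% of bright genes lay.

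**Figure D2:**
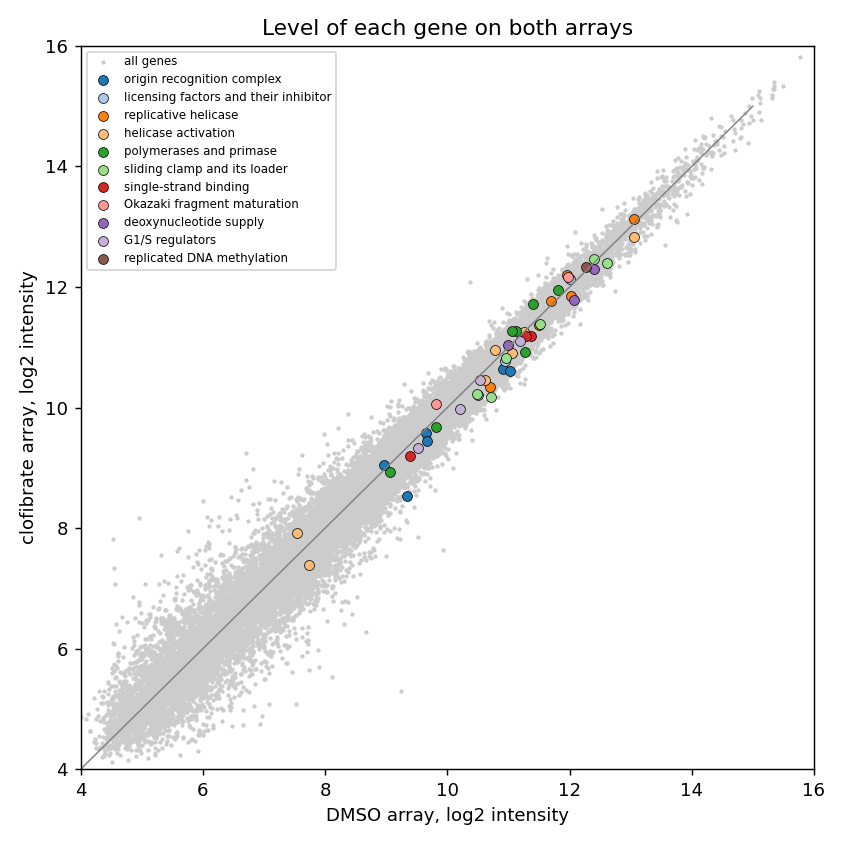
Log2 intensity on the clofibrate array (vertical axis) against the DMSO array (horizontal axis) for all genes (grey) and the 48 replication genes (coloured by role), with a line of equal level. The members follow the line and 46 of them lie at or above the bright level, and ORC6 (9.33 and 8.54) stands furthest below the line.

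Sequences upstream of the members that lay furthest from 0 are shown because E2F factors are known to bind short words near the start of many replication genes. They belong to the 3 lowest and the highest bright members with all rows on the same side of 0, with E2F1 added after its values had been seen, since the gene of this factor has the word in its own window. Each window runs 250 bases before to 50 after the RefSeq start of the gene, 300 bases in all, 5′ to 3′ on the gene's strand. Capitals mark the E2F words TTTCCCGC, TTTGGCGC, TTTCGCGC and TTTGCCGC and the word CCAAT, on either strand; no E2F word overlaps a CCAAT word in these 5 windows.
ORC6 (GRCh38.p14, chr16:46689409-46689708, plus strand): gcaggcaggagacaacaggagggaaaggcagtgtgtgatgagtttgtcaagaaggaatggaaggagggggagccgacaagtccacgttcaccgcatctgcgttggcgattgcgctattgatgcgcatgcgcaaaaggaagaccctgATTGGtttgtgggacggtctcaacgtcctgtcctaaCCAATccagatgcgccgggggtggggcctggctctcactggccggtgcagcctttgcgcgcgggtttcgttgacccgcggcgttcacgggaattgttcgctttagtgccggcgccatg
RFC1 (GRCh38.p14, chr4:39366313-39366612, minus strand): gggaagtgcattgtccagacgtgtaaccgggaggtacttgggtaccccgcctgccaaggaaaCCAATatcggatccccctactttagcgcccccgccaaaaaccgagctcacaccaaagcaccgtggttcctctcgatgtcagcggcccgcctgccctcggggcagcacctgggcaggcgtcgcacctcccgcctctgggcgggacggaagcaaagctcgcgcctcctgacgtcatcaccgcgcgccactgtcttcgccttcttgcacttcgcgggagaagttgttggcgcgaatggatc
ORC3 (GRCh38.p14, chr6:87589885-87590184, plus strand): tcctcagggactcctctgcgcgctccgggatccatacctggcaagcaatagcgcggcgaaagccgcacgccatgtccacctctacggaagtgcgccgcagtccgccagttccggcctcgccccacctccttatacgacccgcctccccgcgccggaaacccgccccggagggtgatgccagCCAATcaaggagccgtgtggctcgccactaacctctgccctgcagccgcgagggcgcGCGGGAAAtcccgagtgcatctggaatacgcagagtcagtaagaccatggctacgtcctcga
POLD2 (GRCh38.p14, chr7:44123499-44123798, minus strand): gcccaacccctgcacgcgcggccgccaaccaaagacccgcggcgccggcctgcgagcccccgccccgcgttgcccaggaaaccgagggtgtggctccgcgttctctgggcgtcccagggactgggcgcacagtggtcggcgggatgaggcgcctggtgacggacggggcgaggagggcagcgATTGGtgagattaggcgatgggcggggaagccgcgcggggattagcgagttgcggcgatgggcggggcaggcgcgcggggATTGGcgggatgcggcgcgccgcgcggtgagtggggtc
E2F1 (GRCh38.p14, chr20:33686336-33686635, minus strand): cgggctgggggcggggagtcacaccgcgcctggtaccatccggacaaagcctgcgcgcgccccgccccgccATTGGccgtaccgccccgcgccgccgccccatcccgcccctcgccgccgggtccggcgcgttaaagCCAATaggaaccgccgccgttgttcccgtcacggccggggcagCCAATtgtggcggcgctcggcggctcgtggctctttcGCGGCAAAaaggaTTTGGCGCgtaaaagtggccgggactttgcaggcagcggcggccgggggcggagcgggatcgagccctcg
The ORC3 window holds 1 E2F word and the E2F1 window 2, while those of ORC6, RFC1 and POLD2 hold none. A match is a description of letters and not a site shown to be used.

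The promoter table used here, from RefSeq, held a window for 43 of the 48 members, and not for MCM4, MCM5, RPA2, RPA3 or CCNE2. An E2F word was present for 23 of these 43 genes (53.5%) and for 5.50% of the 15323 measured genes with a window. Counted by window, 43.6% of the 55 member windows and 3.31% of all 35116 windows held one. CCAAT was present for 25 of the 43 (58.1%), against 42.4% of measured genes. Members with an E2F word had a median difference of -0.10, with 14 of 23 below 0. For members without one it was -0.15, with 14 of 20 below 0. The lowest members included both kinds. ORC3, MCM6, POLA1 and GMNN held the word, and ORC6, RFC1 and DBF4 did not. Bright genes with the word had a median of -0.01 (546 genes), and bright genes without it 0.01. Members with CCAAT had a median of -0.18, with 19 of 25 below 0, and members without it had -0.0041, with 9 of 18 below 0. In bright genes at large the medians with and without CCAAT were 0.01 and 0.00.

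The origin recognition complex had a median of -0.24, with 5 of 6 subunits below 0. Without dim rows its median was -0.17, between those of the licensing factors and the clamp group, so the groups are not ranked here. Counts by role or list, here and below, stand beside 49.6% of all genes and 47.9% of bright genes below 0. ORC6, the smallest subunit, read 9.33 with DMSO and, under clofibrate, 8.54, which is -0.79 against an SD of 0.30 in its level bin. Its rows disagree in size. AK024077 read 8.21 and 6.75, a difference of -1.45 in a row below the bright level, whereas the brighter NM_014321 read 10.46 and 10.33, a difference of -0.13. The gene lies on chromosome 16, where NM_014321 spans 45281058 to 45289807 (hg18). Without the dim row, ORC6 lay at -0.13, like most other members, and 0 members were 1.5-fold different.

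ORC3, a core subunit, read 11.02 and 10.60, a difference of -0.42 at percentile 3.05 of its bin, from 1 row. ORC2 read 10.91 and 10.64, with rows at -0.21 and -0.33. ORC5, an ATP-binding subunit, read 9.67 and 9.45, and both rows were again lower. ORC1, the subunit that drives ATP hydrolysis in the complex, read 9.65 and 9.57, well inside the spread of its bin. ORC4 was the exception at 0.08, and its rows went in opposite directions, 0.35 and -0.19.

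The loading factors did not all go one way. CDC6, which brings the helicase to ORC, read 10.94 and 10.77. Its brighter row NM_001254 read 11.92 and 11.51, a difference of -0.41, and BC025232 differed by 0.07. CDT1, its partner in loading, read 12.01 and 12.13, a difference of 0.11 in a bin with an SD of 0.21. Its rows ran from -0.0041 to 0.22. Geminin (GMNN), the protein that binds and blocks CDT1, read 10.50 and 10.21, a difference of -0.29 with its 3 rows between -0.44 and -0.05. CDT1 was therefore slightly higher and its inhibitor slightly lower on the clofibrate array, each within the middle 95% of its bin.

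The 6 subunits of the replicative helicase were evenly split, with 3 below and 3 above 0 and a median of -0.03. MCM6 was lowest, at 10.69 with DMSO and, under clofibrate, 10.33, or -0.36, from 1 row. MCM5 was highest, at 11.95 and 12.19, or 0.24, also from 1 row. These proteins act as a single ring, and the messages of its subunits ran from 1.28-fold lower to 1.18-fold higher. MCM4 read 12.02 and 11.85, but BC031061 differed by 0.08 and NM_005914 by -0.42. MCM3 read 11.50 and 11.37. MCM2 and MCM7 were both at 0.08, MCM2 with 2 rows at 0.05 and 0.11, and MCM7 with 4 rows between -0.13 and 0.18.

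Of the genes that switch the helicase on, 5 of 7 lay below 0, with a median of -0.15. CDC45, a permanent part of the active helicase, read 13.05 and 12.83, a difference of -0.22. MCM10, needed to start unwinding, read 11.06 and 10.91, with rows from -0.37 to 0.07. CDC7, the kinase that phosphorylates the MCM ring, read 10.62 and 10.46, with rows from -0.46 to 0.11. DBF4, its activating subunit, read 7.74 and 7.39, a difference of -0.35 with both rows lower, but its mean was dim, and its bin had an SD of 0.44. The measured subunits of GINS, the complex that joins CDC45 in the helicase, differed among themselves. GINS1 was at 0.37 (7.54 and 7.91, dim), GINS2 at -0.01, the smallest of the lower values, and GINS3 at 0.17, with its 3 rows between 0.03 and 0.38.

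The DNA polymerase and primase genes had a median of 0.13, on the other side of 0 from the members as a whole, with 4 of 7 above 0. POLD2, the second subunit of polymerase delta, read 11.41 with DMSO and, under clofibrate, 11.72. Its difference of 0.31, from 1 row, was the highest among bright members. POLD1, the catalytic subunit of the same enzyme, read 11.13 and 11.26. POLE, the catalytic subunit of the leading-strand polymerase epsilon, read 11.05 and 11.27, but its rows ran from -0.09 to 0.57, so its value rests mainly on L09561 (11.53 and 12.10).

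The enzyme that lays down primers was divided. POLA1, the catalytic subunit of polymerase alpha, read 11.27 and 10.91, a difference of -0.36 at percentile 4.07 of its bin, from 1 row. Its partner POLA2 read 11.81 and 11.95, a difference of 0.14. PRIM1, the primase that makes the RNA primer, read 9.82 and 9.67. POLE2, the accessory subunit of polymerase epsilon, read 9.06 and 8.94. Both of the last pair differed by less than the SD of their bins.

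The sliding clamp and its loader were lower in 5 of 6 genes, with a median of -0.18. RFC1, the large subunit of the loader, gave the lowest value among members with at least 2 bright rows. Its mean was 10.72 with DMSO and, under clofibrate, 10.17, which is -0.55 or 1.46-fold, in a bin with an SD of 0.22. Its rows NM_002913 (10.81 and 10.08) and BC035297 (10.62 and 10.27) differed by -0.74 and -0.35. It stood at percentile 0.68 of its bin, and NM_002913 spans 38965470 to 39044390 of chromosome 4 (hg18).

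PCNA, the clamp that tethers polymerases to DNA, read 12.62 and 12.40, a difference of -0.22. All 3 of its rows were lower, between -0.28 and -0.13. RFC5 was at -0.26 from 1 row, RFC4 at -0.14 and RFC3 at -0.13, and RFC3 had rows between -0.22 and 0.02. RFC2 was the only loader subunit above 0, at 0.06, with 3 rows between 0.02 and 0.11. The loader subunits other than RFC1 stayed within the middle 95% of their bins.

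All 3 subunits of replication protein A, which coats single-stranded DNA, were lower by small amounts. RPA1 read 11.37 and 11.19, RPA2 11.30 and 11.19, and RPA3 9.39 and 9.19, differences of -0.18, -0.10 and -0.20. The RPA2 row NM_002946 was at 0.0048. Both genes of Okazaki fragment maturation were higher. FEN1, the nuclease that trims the flap between fragments, read 11.97 and 12.17, a difference of 0.20. LIG1, the ligase that seals the nick, read 9.82 and 10.06, with rows at 0.12 and 0.36. Each of these 5 values was smaller than the SD of its bin.

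Deoxynucleotide supply was divided between the subunits of 1 enzyme. RRM1, the large subunit of ribonucleotide reductase, read 12.07 and 11.78, a difference of -0.29 at percentile 8.31 of its bin, from 1 row. RRM2, the small subunit that is made in S phase, read 10.99 and 11.03, with rows at -0.09 and 0.17. TYMS, which makes the thymidine precursor, read 12.39 and 12.30, with rows between -0.25 and 0.09. TYMS overlaps an antisense gene, ENOSF1, and the sources used here do not give the strand of the probes.

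The 4 regulators of S phase entry were all slightly lower, with a median of -0.14. E2F1, an activator of the genes above, read 10.22 and 9.97, a difference of -0.25 with rows at -0.18 and -0.32. E2F2, a related activator, read 11.20 and 11.10. CCNE1 and CCNE2, the cyclins that drive CDK2 at the start of S phase, read 10.53 and 10.46, and 9.53 and 9.33. All 3 rows of CCNE2 were lower. UHRF1, which brings the maintenance methyltransferase to newly copied DNA, read 12.27 and 12.33, a difference of 0.06.

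**Figure D3:**
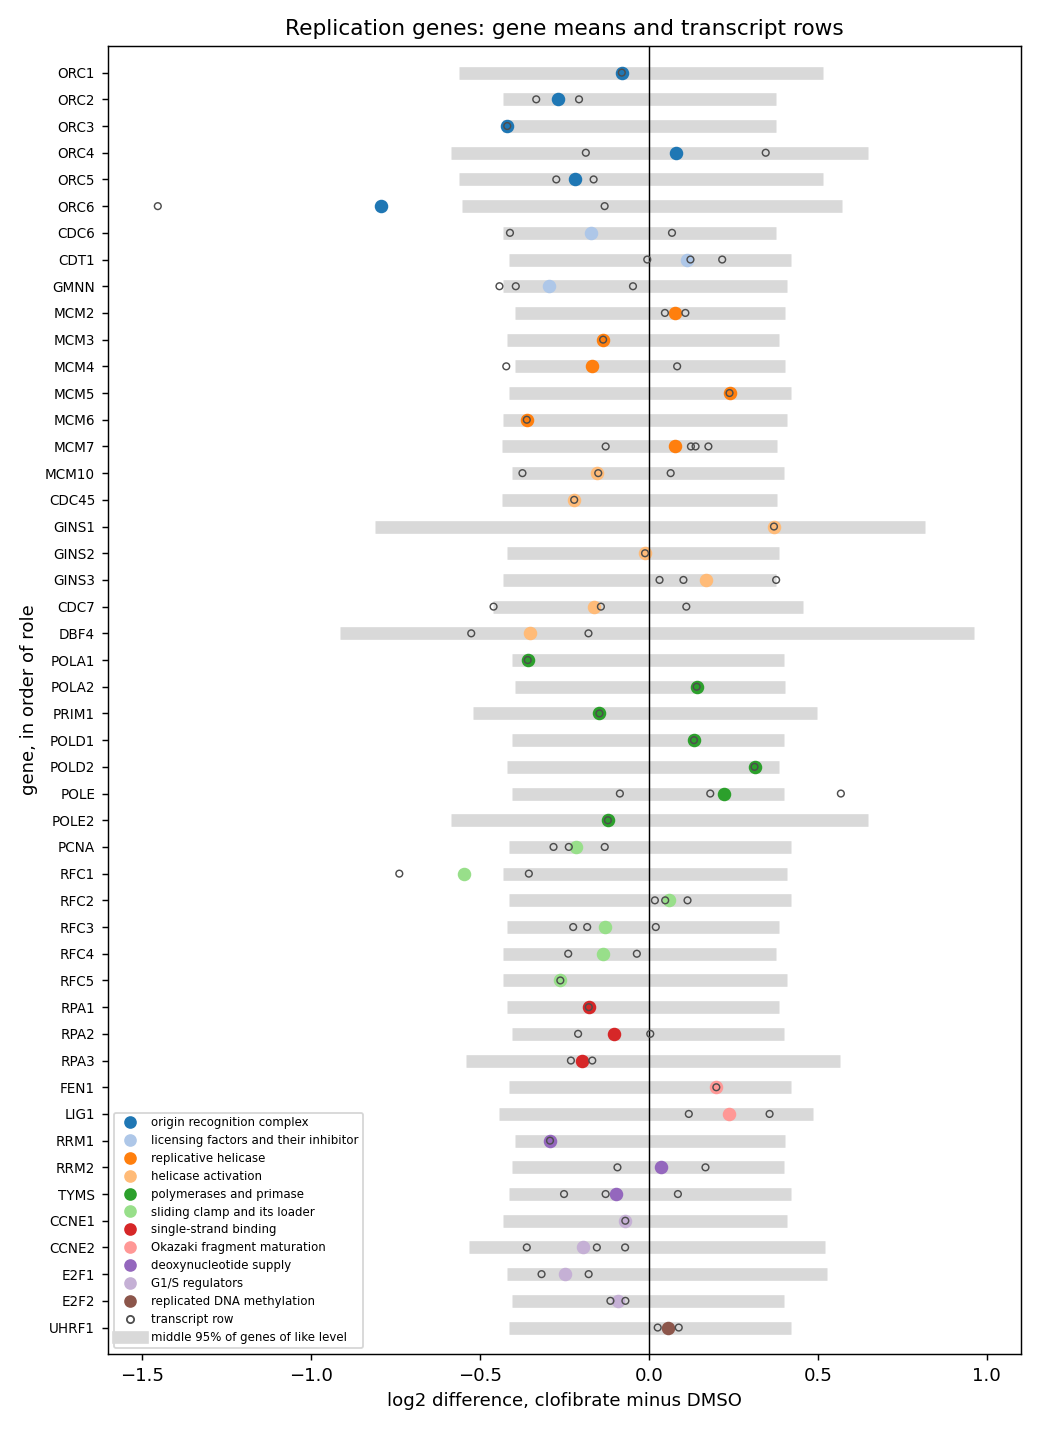
Log2 difference, clofibrate minus DMSO (horizontal axis), for each of the 48 replication genes (vertical axis, in order of role). Filled points are gene means, open points the single transcript rows, and grey bars the middle 95% of genes of like level; the gene means of ORC6 (-0.79) and RFC1 (-0.55) lie outside their bars, and the open points of ORC6 are 1.32 apart.

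Counted by row, 56 of the 90 member rows lay below 0 and 34 above, against 49.5% and 50.4% of all rows. At 1.5-fold 2 member rows were lower and 0 higher, against 6.42% and 6.41% of all rows, and at 2-fold 1 was lower and 0 higher, against 1.49% and 1.44%. Rows of the same gene also showed how far values of a gene differ within the pair of arrays. Of the 29 members with at least 2 rows, 12 had every row below 0, 5 every row above 0 and 12 rows of both signs. The other 19 members had 1 row each, among them MCM5, MCM6, CDC45, GINS1, POLA1, POLD2, FEN1 and RRM1. Among bright genes with at least 2 rows, 24.5% had every row below 0 and 26.5% every row above it. The SD among rows of 1 member, pooled over these 29 genes, was 0.24, and the SD among the means of the 48 members was 0.23. The first is a spread of single rows and the second of means over up to 4 rows, and rows of a gene can be different transcripts. Members with every row lower were ORC2, ORC5, ORC6, GMNN, DBF4, PCNA, RFC1, RFC4, RPA3, CCNE2, E2F1 and E2F2, and those with every row higher were MCM2, GINS3, RFC2, LIG1 and UHRF1.

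Other genes of the pathway lay nearer 0 at the median. In 5 further lists, with 76 genes that are not members, 41 lay below 0 and 35 above, with a median of -0.02. At 1.5-fold, 2 of the 76 were lower and 0 higher, beside 4.62% and 4.53% of all genes. Other initiation and licensing genes had a median of -0.04, with 9 of 15 below 0. Among them MCM9, a helicase of the MCM family used in repair, differed by -0.54, DONSON by -0.22, MCM8 by -0.21 and WDHD1 by -0.20. Other fork genes had a median of 0.02, with 8 of 20 below 0. TOP1, which relaxes DNA ahead of the fork, read 10.99 and 10.39, a difference of -0.60, and EXO1 was at -0.28, while RNASEH2B was at 0.34 and ATAD5, which helps to unload PCNA, at 0.31.

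Other nucleotide supply genes had a median of 0.02, with 7 of 16 below 0. CAD, which starts pyrimidine synthesis, was at 0.33 and ATIC at 0.19, and the purine synthesis genes PPAT and GART were at -0.37 and -0.25. Chromatin assembly genes had a median of -0.04, with 8 of 12 below 0. CHAF1B, a subunit of the histone chaperone CAF-1, was at 0.36 and ASF1B at 0.26, against -0.14 for NASP and -0.11 for CHAF1A. The other E2F and pocket protein genes had a median of -0.04, with 9 of 13 below 0. In that list RBL1, which encodes the pocket protein p107, was at -0.34, E2F5 at -0.26, RBL2 at -0.25 and CDKN1A, the inhibitor p21, at 0.30.

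Mitosis genes, listed for comparison, had a median of -0.01, with 10 of 20 below 0. Their relation to the share of cycling cells was not tested. MKI67, the proliferation marker Ki-67, was at -0.32 and CENPF, a kinetochore protein, at -0.40, whereas PLK1 was at 0.29 and CENPA at 0.34. Whether the replication genes and these lists differ was not tested, since 1 array per treatment allows no test.

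**Figure D4:**
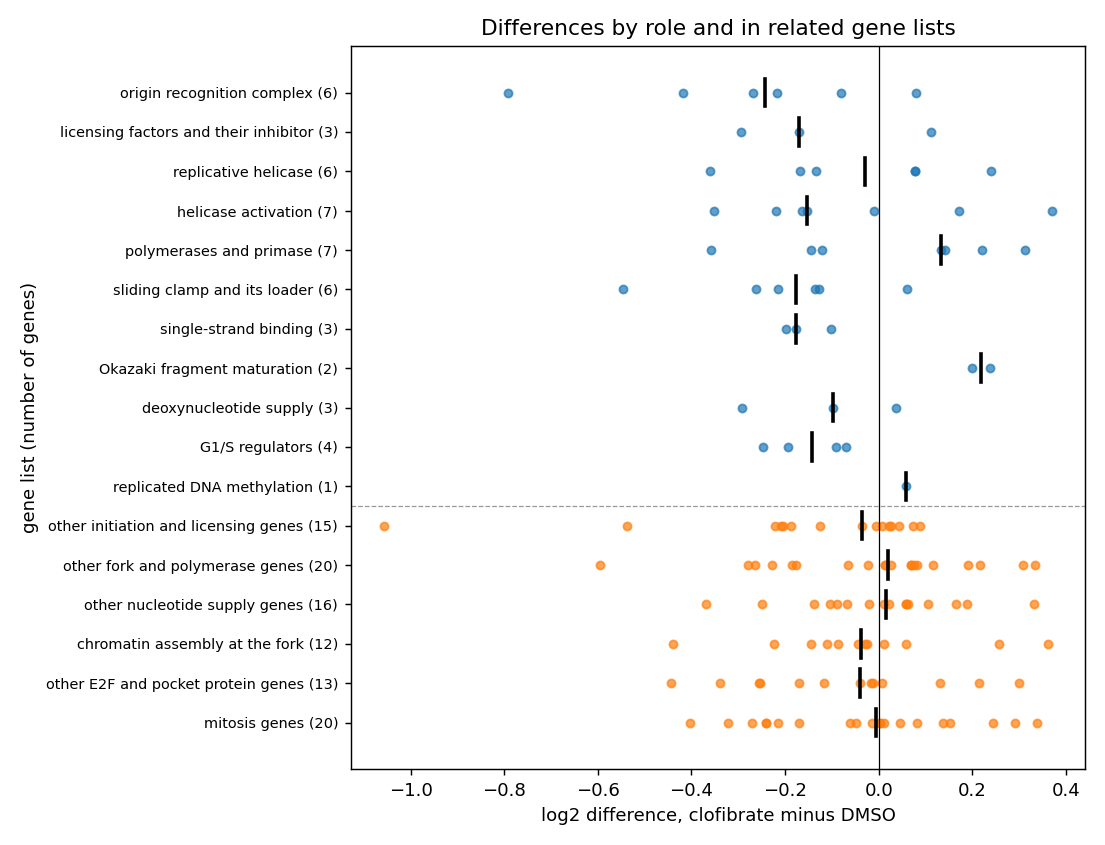
Log2 difference, clofibrate minus DMSO (horizontal axis), of single genes in the 11 role groups of the replication genes (blue) and in 6 related lists of other genes (orange), with the number of genes in brackets and a black bar at each median. The blue medians run from -0.24 (origin recognition, -0.17 without dim rows) to 0.22 (Okazaki fragment maturation), and the 6 orange medians lie between -0.04 and 0.02; the lowest orange point is MTBP.

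MTBP, the lowest of those other genes, was named after its value had been seen. It read 7.13 and 6.07, a difference of -1.06, and its mean was dim.

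Gene length moved with the difference across the array as a whole. Bright genes with a span of 30 kb or more (4167 genes) had a median of -0.06, and those under 30 kb (7631 genes) had 0.05. Of the longer bright genes 59.1% lay below 0, and of the shorter ones 41.7%. Of the 22 members of 30 kb or more, 15 lay below 0, with a median of -0.16, and of the 26 shorter members 17 did, with a median of -0.10. Members below and above 0 had like median spans, 24.8 and 24.2 kb. Spearman's rho between difference and log10 span was -0.18 over the 48 members and -0.18 over bright genes, given as a description across genes that share the same 2 arrays. With a smooth trend on span removed, 33 of 48 members lay below 0 and their median was -0.12. The median GC content of the promoter window was 63.5% for 28 members below 0 and 69.3% for 15 members above 0, and its part in the differences was not tested.

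**Figure D5:**
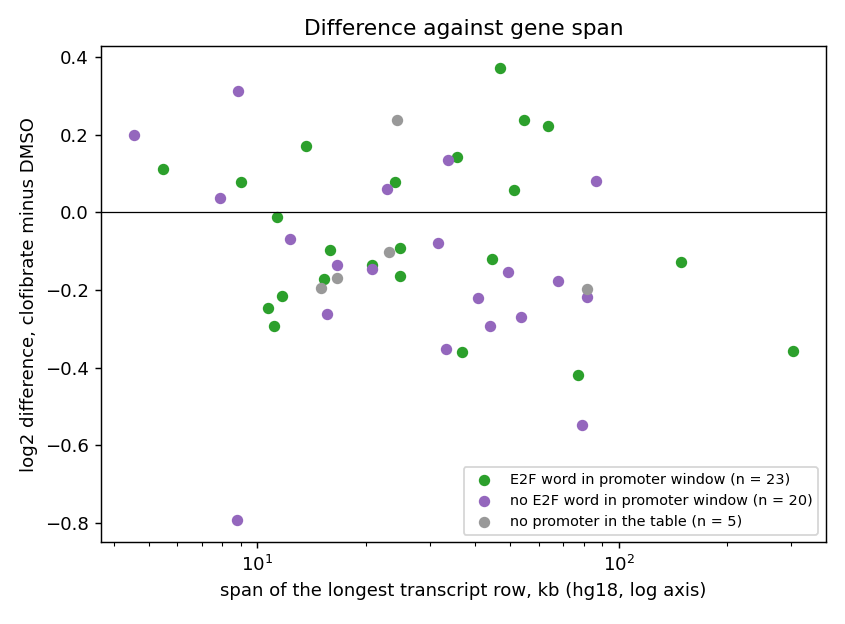
Log2 difference, clofibrate minus DMSO (vertical axis), against the span of the longest transcript row in kb (horizontal log axis, hg18) for the 48 replication genes, coloured by whether an E2F word is in the promoter window. Genes below 0 occur at short and long spans, from ORC6 (8.75 kb, -0.79) to POLA1 (303 kb, -0.36), and both colours occur on both sides of 0.

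Depth of signal and identity of the cells were read from the same arrays. Both arrays had a median intensity of 402 over transcript rows, and random probes read 48.7 with DMSO and 48.1 with clofibrate. VIM, a mesenchymal filament that Panc1 expresses, read 12.03 and 11.87 on the log2 scale, and the epithelial keratins KRT8 and KRT18 were bright, so 3 of the 7 markers listed for the line were. The other epithelial markers were dim: KRT7 read 8.22 and 8.18, EPCAM 8.19 and 7.73, and CDH1 7.38 and 7.47. The duct keratin KRT19 read 5.65 and 5.12, beside 5.61 and 5.59 for random probes. Summed intensity over the 6 leukocyte markers was 1145 with DMSO and 1489 with clofibrate, with 4 of 6 higher. ITGB2 accounted for most of this at 0.86, while PTPRC, the defining leukocyte marker, read 5.35 and 5.30, and it and CD3E were under the random probes throughout. The 7 fibroblast markers summed to 2285 and 2202, the 5 endothelial markers to 362 and 390, and the 7 acinar and islet markers to 612 and 668. The part of these markers in the replication gene differences was not tested.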

How the data were processed

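Per the labels, 1 DMSO sample and 1 clofibrate sample of Panc1 total RNA were labelled with Cy3, each on its own 1-colour NimbleGen array. The authors deposited linear intensities summarised with RMA, per the submitters' processing notes, with no version or settings stated. RMA usually equalises arrays, and a change common to most genes would then be hidden. Per the file headers, positions were on hg18 and 45031 rows summarised 3 probes. A second, undefined column was left out.

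Intensities were converted to log2 and averaged over the rows of a symbol. Of 45033 rows, 42947 had a symbol and 38916 matched a RefSeq gene ID (GRCh38.p14), which supplied current names. Differences are clofibrate minus DMSO, without tests, as there was 1 array a group. Spread was described within 40 bins of like level. Members, lists and thresholds were chosen with earlier results of these data known. All members were covered, with up to 4 bright genes of each other list, those with the largest differences; MTBP, KRT7, KRT19, EPCAM, CDH1, PTPRC and CD3E were named after seeing their values. Alternatives covered scaling (limma), a trend on span (loess fraction 0.3), level filters, row summaries, a pseudocount of 32 and the series matrix. The calculation was tested on simulated data, with a larger list shift and less spread than in these data. How it behaves at the shift reported here was not tested. Probe sequences were not used here, so hybridisation to pseudogenes was not tested.

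Software: limma 3.58.1 under R 4.3.3; Python 3.11.15 with statsmodels 0.14.6, scipy 1.17.1, matplotlib 3.10.9, pandas 2.3.3 and numpy 2.4.6.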

Additional observations from a re-analysis of the deposited data

How the results depend on the processing

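Over 14 alternatives, 2 of them chosen after seeing the data (leaving out the 3 members found by gene ID, and leaving out dim rows), the median over members stayed below 0, from -0.14 (loess on mean level removed) to -0.11 (median over rows), and the share of members below 0 ran from 62.5% (median over rows) to 68.9% where genes were counted. The count of members at least 1.5-fold different, 1 as reported, became 0 when genes under the 75th percentile of level were left out, 0 when the brightest row stood for its gene and 0 without dim rows; each of these removes ORC6 or its dim row. Counted by transcript row, 56 of 90 (62.2%) lay below 0, 2 were 1.5-fold lower and 1 was 2-fold lower. Of the 48 members, 45 kept their sign under every alternative run for single genes, 30 below and 15 above 0. The filters on whole genes, by level or by random probes, and the series matrix left single-gene values unchanged. They could therefore not turn a sign. RFC3 and TYMS turned above 0 with the median over rows (0.02 and 0.04), and RRM2 turned below 0 with the trend on span removed (-0.0048). With the brightest row, ORC6 was at -0.13, CDC6 at -0.41, MCM4 at -0.42, CDC7 at -0.46 and POLE at 0.57. No paired analysis was possible because both groups held a single array, so none could be left out either. All 90 rows exceeded the random probes on both arrays.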
